A study of Homo sapiens with 6 samples.

Results

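The shRNA library of the HUH7 survival screen held 15 shRNAs against the long non-coding RNAs (lncRNAs) MALAT1 and NEAT1, 10 for MALAT1 and 5 for NEAT1. They were found in the annotation of the library as every shRNA listed against a non-coding transcript under either gene symbol, without use of the counts. The library comprises 7873 shRNAs, of which 7242 are listed against lncRNAs. HUH7 is an established human hepatocellular carcinoma (HCC) cell line. Of the 6 libraries, 3 were made from the input plasmid pool before any virus was produced, and 3 from genomic DNA of HUH7 cells that carried the library. For the latter, cells were infected at a low multiplicity with the lentiviral library, in which each vector also carries a puromycin resistance marker, placed on puromycin 2 days later, kept on it for 4 days, and grown for a further 4 weeks. The input pool never entered cells, so packaging, infection, puromycin and growth all lie between the groups and cannot be told apart. Each library gives the number of reads of every shRNA cassette, and fewer cells with a cassette cannot be told apart from fewer copies of it per cell. The level of the targeted RNAs after knockdown was not analysed here.

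MALAT1 is an abundant RNA of the nucleus that gathers at nuclear speckles, the bodies that store splicing factors. NEAT1 is the RNA scaffold around which paraspeckles, another type of nuclear body, are built. NEAT1 is made as a short polyadenylated transcript and as a long one that begins at the same promoter, and only the long transcript can form paraspeckles. Both RNAs have been studied widely in liver cancer and other tumors. An shRNA is cut in the cell to a guide strand that pairs with its target, first through its seed, which is taken here as guide bases 2 to 8 (target bases 14 to 20). RNAi works best on RNA in the cytoplasm and less well on RNA held in the nucleus.

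In GRCh37, the longest NEAT1 transcript (ENST00000501122) covers chromosome 11 from 65190269 to 65213011. The longest MALAT1 transcript (ENST00000534336) covers 65265111 to 65275544 on the same strand, 52099 bases further on. All 15 targets matched the plus strand of their gene without mismatch. The MALAT1 shRNAs were listed against 2 transcripts. The 5 targets of ENST00000508832 lie between 65270307 and 65270890, in the middle of the gene, and the 5 targets of NR_002819 lie within 167 bases between 65273152 and 65273318, toward its 3′ end. All 10 lie in exonic sequence of MALAT1, and TALAM1, a transcript of the opposite strand, covers all of them. The positions that the library gives for NR_002819 count from base 65273120, 8009 bases inside the longest transcript, so they are not distances from the 5′ end of MALAT1. Nor are those of ENST00000508832 distances from that end, since, counted back from the targets along the genome, they start 5077 bases inside the longest transcript. ENST00000508832 itself starts at 65266513 and has 2 exons. Whether its listed positions are distances along its joined exons was not tested. Each MALAT1 target matched 1 place in the genome and exons of 1 gene.

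The NEAT1 targets were of another kind. They were listed under NR_030343, an accession that the RefSeq table pairs with MIR612, a microRNA gene of 100 bases within the NEAT1 locus, whereas 3 of the 5 listed positions lie past base 100. The sequences themselves all matched NEAT1, within 221 bases toward the 3′ end of the gene. Of 9 annotated NEAT1 transcripts, only the longest contains the targets. Counted back from the targets, the listed positions start 19778 bases inside that transcript. The 8 short transcripts end at or before 65193984, which is 16100 bases upstream of the first target. The stretch resembles Alu, a repeat found in very many copies in the human genome. The targets of NR_030343 shRNA 3 and shRNA 4 matched many places in the genome, exons of other genes included. The target of shRNA 1 matched 35 places, that of shRNA 5 matched 4 and that of shRNA 2 matched 1, each with exons of NEAT1 alone. At exactly 1 mismatch, shRNA 1 had 4468 further places, shRNA 5 had 78 and shRNA 2 had 8. In transcripts, shRNA 1 matched 54 further genes at 1 mismatch, and shRNA 5 and shRNA 2 matched 0.

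From NEAT1, the targets of the depleted shRNA, of the shRNA that overlaps it and of the shRNA furthest in the other direction are shown. They are written 5′ to 3′ on the plus strand of GRCh37, with the bases that pair with the guide seed in capitals.
NR_030343 shRNA 1, chr11:65210148-65210168: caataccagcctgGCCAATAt
NR_030343 shRNA 2, chr11:65210084-65210104: tggctcacgcctgAATCTTAg
NR_030343 shRNA 5, chr11:65210095-65210115: tgaatcttagcacTTTGGGAg

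From MALAT1, the targets of the 3 shRNAs that passed the test and of the shRNA furthest in the other direction are shown in the same way.
ENST00000508832 shRNA 1, chr11:65270307-65270327: caaatgaaagctaCCAATTTa
ENST00000508832 shRNA 3, chr11:65270694-65270714: gttagggataagtGCTTATTt
NR_002819 shRNA 2, chr11:65273227-65273247: acagctaagtagcTCTATTAt
NR_002819 shRNA 5, chr11:65273298-65273318: acatgttcaagaaCTGTAATg

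The MALAT1 targets hold 6 to 9 G or C bases of 21 (median 7), those of NEAT1 hold 9 to 12 (median 10), and the median of the whole library is 10. No other shRNA in the library shares a run of 15 or more target bases with any of the MALAT1 shRNAs. Of the NEAT1 targets shown, that of shRNA 1 shares such a run with 5 other shRNAs, while those of shRNA 2 and shRNA 5 share one with 0.

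Total counts were 2323330 to 2612829 per input library and 1525256 to 4013368 per selected library, the lowest being that of selected replicate 1. The input libraries were nearly alike (chi-square per degree of freedom of 1.09 to 1.11 between pairs), and the selected libraries were not (10.8 to 11.9). Replicates are not described as separate infections or cultures, so the spread behind every p-value is that of these libraries and may be technical. The main test fitted a common spread per shRNA to both groups, although the groups differ in it. Values below are TMM-normalized read counts, scaled to the mean size of the 6 libraries. Each log2(fold change) compares input with selected cells, so that a positive value means fewer reads after selection. Depleted shRNAs are those with a value of 0.75 or more, enriched shRNAs are those that changed by this much in the other direction, and both need an adjusted p-value no higher than 0.05 in edgeR.

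MALAT1 and NEAT1 each had 1 depleted shRNA in HUH7 cells, and most of their shRNAs did not pass the test. For MALAT1, 1 of 9 tested shRNAs was depleted and 0 were enriched. For NEAT1, 1 of 5 was depleted and 0 were enriched. DESeq2 without its beta prior gave the same counts of 1 and 0 for each gene, and with the prior 0 MALAT1 shRNAs and 1 NEAT1 shRNA were depleted. Over all 7232 tested shRNAs, 6.83% were depleted and 5.85% enriched. With 9 and 5 tested shRNAs, a count of 1 cannot show whether either gene differs from these shares. By the adjusted p-value alone, 3 of 9 MALAT1 shRNAs and 1 of 5 NEAT1 shRNAs fell and 0 rose, beside 15.4% falling and 17.4% rising among all shRNAs. At an unadjusted p-value under 0.05, the numbers were 4 of 9 for MALAT1 and 2 of 5 for NEAT1, of which 1 in each gene was higher after selection, beside 3205 of 7232 among all shRNAs. The median log2(fold change) was 0.23 for MALAT1 and 0.10 for NEAT1, against -0.01 for all tested shRNAs. Among MALAT1 shRNAs, 7 of 9 had a value above 0, among NEAT1 shRNAs 3 of 5 did, and among all shRNAs 3545 of 7232 did.

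NEAT1 shRNA 5 showed the largest fall of the 15. NR_030343 shRNA 5 had 100.2, 101.2 and 90.0 normalized counts in the 3 input libraries and 30.5, 26.0 and 22.1 in the selected libraries. The groups lie far apart, with every selected library below 31 counts and every input library at 90 or above. The mean went from 97.1 ± 6.16 to 26.2 ± 4.22 (SD, n = 3), which is 3.76-fold lower (log2 1.91, standard error 0.27, edgeR adjusted p = 0.00179). Against the input mean, the log2 value was 1.67, 1.90 and 2.14 in selected replicates 1, 2 and 3, and the value stood higher than that of 98.7% of tested shRNAs. Behind these values lie 275 reads in the input and 79 in the selected libraries, so the shRNA was one of the rarer ones in the pool (above 17.4% of the tested shRNAs in input abundance). The call was kept without each library in turn (1.79 to 2.02), but the shRNA is not tested when a mean count of 100 is asked for.

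An overlapping shRNA stayed near its input level. The target of NR_030343 shRNA 2 overlaps that of shRNA 5 by 10 bases, from 65210095 to 65210104, shown here in capitals.
NR_030343 shRNA 2: tggctcacgccTGAATCTTAG
NR_030343 shRNA 5: TGAATCTTAGcactttgggag

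The guides of the pair have different seeds. NR_030343 shRNA 2, the most abundant NEAT1 shRNA, had 794.2, 746.9 and 774.1 normalized counts in the input libraries and 592.8, 842.5 and 709.9 in the selected libraries. The input values lie inside the range of the selected values, and the log2(fold change) of 0.10 did not pass the test (95% interval -0.17 to 0.37, adjusted p = 0.544 from edgeR). The read ratio of shRNA 5 to shRNA 2 within a library, which needs no normalization, was 0.126, 0.136 and 0.116 in the input libraries and 0.0515, 0.0309 and 0.0311 in the selected libraries. All selected ratios were below all input ratios, a mean difference of 1.78 on the log2 scale (exact permutation test over libraries, two-sided, p = 0.1, the smallest p that 3 against 3 can give, and 0.3 adjusted over 3 pairs of adjacent or overlapping targets). The value of shRNA 5 was known when the pair was chosen.

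The other NEAT1 shRNAs lie in the same 221 bases and stayed near their input share. NR_030343 shRNA 1 had the lowest log2(fold change) of the 5, with 536.2, 555.9 and 588.9 normalized counts in the input libraries and 725.7, 561.1 and 755.4 in the selected libraries. Selected replicates 1 and 3 were above every input library and replicate 2 was among them, and the value of -0.28 did not pass the test (95% interval -0.55 to -0.01, adjusted p = 0.107 from edgeR). It passed without selected replicate 2 (-0.41, adjusted p = 0.00957). NR_030343 shRNA 3 had 719 ± 21.8 in the input and 735 ± 62.0 in the selected libraries (SD, n = 3; log2(fold change) -0.03, 95% interval -0.22 to 0.17). NR_030343 shRNA 4 had 115 ± 7.25 and 96.5 ± 21.1 (log2(fold change) 0.26, 95% interval -0.25 to 0.77). Neither passed the test (adjusted p = 0.847 and 0.404 from edgeR), and the interval of shRNA 4 reaches past the fold limit.

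Some other shRNAs of the library have targets closely related to that of NEAT1 shRNA 1. The 5 that share 15 or more target bases with it had log2(fold change) values from -0.23 to 1.34, and 1 was depleted, RUNX2-AS1 ENST00000563807 shRNA 1. All 5 are among the 8 other shRNAs that carry the seed of NEAT1 shRNA 1, and of these 8 only the same RUNX2-AS1 shRNA was depleted. The median of the 8 was 0.49, whereas NEAT1 shRNA 1 itself had -0.28. By the edgeR adjusted p-value alone, LINC00221 ENST00000603633 shRNA 2 (0.70, adjusted p = 0.0144) and SCAMP1-AS1 NR_105014 shRNA 1 (0.47, adjusted p = 0.0408) also fell. The rest of the 8 did not pass, and 15.4% of all tested shRNAs fell in this way. The part of the seed in these values was not tested. No other shRNA in the library has the seed of NEAT1 shRNA 5, so the screen holds no second reading of that seed.

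The depleted MALAT1 shRNA fell by less and varied more. ENST00000508832 shRNA 1 had 371.3, 385.4 and 383.9 normalized counts in the input libraries and 158.1, 314.6 and 174.1 in the selected libraries. All selected libraries were below all input libraries, but selected replicate 2 stayed near the input level while the other 2 were far lower. The mean went from 380 ± 7.77 to 216 ± 86.1 (SD, n = 3), 1.74-fold lower (log2 0.80, standard error 0.24, edgeR adjusted p = 0.0288). Leaving out any input library ended the call (0.80 to 0.83, adjusted p = 0.0849 to 0.0923), as did leaving out selected replicate 3 (0.64, adjusted p = 0.0947). Without selected replicate 1 it fell under the fold limit (0.65, adjusted p = 0.0375), as it did with the beta prior of DESeq2 (0.70), and without selected replicate 2 it was 1.18 (adjusted p = 0.00180). It was called in all the other alternatives. Over all shRNAs, 494 were depleted, and 253 to 279 without 1 input library, so losing a call in this way was common in the screen.

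Its guide seed, aaattgg, occurs in 3 other shRNAs of the library, none of them against MALAT1. 2 of these were depleted, NM_002502.3 shRNA 2 against NFKB2, a subunit of the NF-kB transcription factor (log2(fold change) 2.70, adjusted p = 0.00843), and ENST00000360083 shRNA 1 against SPAG16-DT (0.94, adjusted p = 0.00153). The other, NM_001145104.1 shRNA 5 against SMAD3, a transducer of TGF-beta signals, had a log2(fold change) of -1.02 and did not pass the test (adjusted p = 0.0604 from edgeR). These are 3 shRNAs, and the part of the seed in their values was not tested. Of all tested shRNAs, 6.83% were depleted. Among tested shRNAs with the seed of NR_002819 shRNA 5, 1 of 10 was depleted, and with that of NR_002819 shRNA 2, 0 of 3.

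The most abundant MALAT1 shRNAs fell by a small and even amount. NR_002819 shRNA 5, the most abundant of the 15, had 1241.3, 1362.0 and 1365.0 normalized counts in the input libraries and 944.9, 1050.4 and 1030.0 in the selected libraries. The groups do not overlap, and the selected cells were 1.31-fold lower (log2 0.39, standard error 0.07, edgeR adjusted p = 0.00502). This held without each library in turn (0.35 to 0.44, adjusted p = 0.00301 to 0.0388). NR_002819 shRNA 2 had 817.4, 765.1 and 770.0 in the input and 628.7, 700.9 and 620.8 in the selected libraries. Its groups do not overlap either, and its value on the log2 scale was 0.27 (standard error 0.09, adjusted p = 0.0380 from edgeR). Leaving out any input library ended this (0.24 to 0.29, adjusted p = 0.111 to 0.168), and it did not pass without selected replicate 3 (0.23, adjusted p = 0.0661) or in a fit blocked by replicate number (0.27, adjusted p = 0.0744). Both falls are under the fold limit of the screen, and both shRNAs stood above 90% of the tested shRNAs in input abundance (98.3% and 90.5%).

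The other shRNAs in the 3′ window of MALAT1 did not pass the test. NR_002819 shRNA 1 had 337.9, 324.0 and 339.4 normalized counts in the input and 176.0, 272.5 and 312.7 in the selected libraries, lower in all but by very different amounts (log2(fold change) 0.37, 95% interval -0.06 to 0.80, adjusted p = 0.162 from edgeR). NR_002819 shRNA 3, with 1 base between its target and that of shRNA 5, was at 400.6 and 352.2 in selected replicates 1 and 2 and at 229.0 in replicate 3, against 368.2 to 386.5 in the input (0.23, 95% interval -0.20 to 0.65). The read ratio of shRNA 5 to shRNA 3 was 3.37 to 3.60 in the input libraries and 2.36 to 4.50 in the selected libraries, and the groups overlap (exact permutation test, two-sided, p = 0.7). For the adjacent pair of shRNA 1 and shRNA 2, 4 bases apart, the ratio of shRNA 2 to shRNA 1 was 2.27 to 2.42 and 1.99 to 3.57 (p = 0.7 in the same exact test). NR_002819 shRNA 4 had 112 ± 19.8 and 120 ± 46.2 (SD, n = 3; -0.10, 95% interval -0.78 to 0.57).

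In the middle of MALAT1, shRNAs 2 and 3 were rare in the pool and their values spread widely. ENST00000508832 shRNA 3 had 16, 31 and 33 reads in the input libraries and 41, 67 and 60 in the selected libraries, which is 16.2, 35.2 and 34.2 normalized counts against 73.7, 60.1 and 40.2. All selected libraries were above all input libraries, and its log2(fold change) of -1.002 was the lowest of the 15, but it did not pass the test (standard error 0.41, 95% interval -1.93 to -0.08, adjusted p = 0.0899 from edgeR). ENST00000508832 shRNA 2, named here after its values were seen, had 46, 35 and 47 reads in the input libraries and 1, 65 and 73 in the selected libraries. Selected replicate 1 held 0.656 CPM, the count scaled to the total of the library (exact 95% binomial interval 0.0166 to 3.65), and selected replicates 2 and 3 held 21.6 and 18.2 CPM, beside 15.1 to 18.4 CPM in the input libraries. The log2(fold change) of 0.23 has a 95% interval of -1.27 to 1.72, and without selected replicate 1 it was -0.25. ENST00000508832 shRNA 5 had 302 ± 22.2 and 295 ± 55.2 (SD, n = 3; 0.04, 95% interval -0.33 to 0.41). ENST00000508832 shRNA 4, with 3 bases between its target and that of shRNA 3, had 0 reads in each of the 6 libraries and could not be tested. A count of 0 allows up to 3 reads, or 1.15 to 1.29 CPM in the input libraries and 0.748 to 1.97 CPM in the selected libraries. It was thus missing from the plasmid pool at this depth, and its 0 in the cells carries no information on MALAT1. Intervals and limits of this kind cover counting error only, since PCR reads carry no molecular identifiers.

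Summed by gene, MALAT1 shRNAs were lower after selection and NEAT1 shRNAs were level. The summed normalized counts of the MALAT1 shRNAs were 3603.6, 3707.4 and 3745.3 in the input libraries and 2822.1, 3306.4 and 2764.4 in the selected libraries, which is 19.6% lower in the mean. Every selected library was below every input library. NR_002819 shRNA 5 alone supplied 35.9% of the input sum. For NEAT1 the sums were 2253.0, 2227.1 and 2309.9 in the input and 2270.6, 2203.1 and 2286.9 in the selected libraries, 0.433% lower in the mean and with overlapping groups. Such sums weight each shRNA by its abundance and were not tested. The MALAT1 sum includes the 3 shRNAs that fell by the adjusted p-value, and sums were not taken for other genes.

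In number, 5 of the 9 tested MALAT1 shRNAs had groups that do not overlap, 4 lower and 1 higher after selection, as did 1 of the 5 NEAT1 shRNAs, which was lower. Among all tested shRNAs, 51.2% had groups that do not overlap. Relative to the mean, the selected libraries spread more than the input libraries for every tested member except ENST00000508832 shRNA 3. The coefficient of variation of a member was 2.04 to 37.5% between input libraries (median 5.33% for MALAT1 and 4.75% for NEAT1) and 5.55 to 83.3% between selected libraries (median 27.7% and 16.1%).

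By the rule of the screen, an lncRNA is a candidate with at least 2 depleted shRNAs at a log2(fold change) of 1 or at least 3 at 0.75. None of the 3 targeted transcripts of MALAT1 and NEAT1 met it. NR_030343 had 1 shRNA past 1, ENST00000508832 had 1 past 0.75 and NR_002819 had 0. The rule was met by 1.11% of the 1538 lncRNA transcripts with a tested shRNA. These are 17 transcripts by edgeR, whereas the paper tested with DESeq2, so they are not its set of candidates.

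Other lncRNAs of the library serve as a comparison. Of 9 lncRNAs listed as nuclear, 4 were targeted, TUG1, MEG3, FTX and PVT1. Of their 52 tested shRNAs, 4 were depleted and 4 enriched, and the median was -0.01 on the log2 scale. The 6 targeted lncRNAs of a list of 8 cytoplasmic ones (HULC, DANCR, OIP5-AS1, NORAD, ZFAS1 and SNHG5) had 10 depleted and 3 enriched shRNAs of 84, with a median of 0.02. HULC, an lncRNA named for its rise in liver cancer, had 1 depleted shRNA of 4 and a median of 0.31, and TUG1, a nuclear lncRNA, had 1 of 17 and a median of 0.04. The shRNAs against reporter and resistance genes, genes that are not lncRNAs, had 4 depleted and 3 enriched of 43 and a median of -0.09. Their highest value was 2.53, above the 1.91 of NEAT1 shRNA 5. The difference between these groups and the MALAT1 or NEAT1 shRNAs was not tested.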

How the data were processed

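The deposited values are whole, unnormalized read counts per shRNA. The authors made them from PCR products of the cassettes, using Cutadapt 1.4.2 for trimming. Reads were aligned with BWA 0.7.10 to the shRNA sequences of the library and summarized with SAMtools 1.3. Other deposited columns used were target sequences, transcripts and positions.

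The main test was the quasi-likelihood test of edgeR 4.0.16 (R 4.3.3) after TMM normalization, without a block, on 7232 shRNAs whose counts averaged 10 or more, with p-values adjusted after Benjamini-Hochberg over all of them. Standard errors were derived by dividing the log2(fold change) by the root of its F statistic. The test was checked on simulated data. Permutation tests used scipy 1.17.1. Target sequences were searched on both strands of GRCh37 and in GENCODE release 44 lifted to it. The RefSeq table follows GRCh38 and served for names and the length of MIR612 only. Only some of the target sequences are printed.

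The members and lists were chosen with earlier results of these data known. Named were the shRNAs that passed, the extremes in log2(fold change) and in input abundance, those with overlapping targets and those removed by the filter, and the rest are given by their values or ranges. Alternatives were RLE factors, library totals, no filter or a mean count of 100 or more, DESeq2 1.42.0 (beta prior on or off), limma 3.58.1 voom with group weights, a robust spread, the replicate number as a block, no fold limit, and each library left out.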

Additional observations from a re-analysis of the deposited data

How the results depend on the processing

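The count of depleted MALAT1 shRNAs was 1, and became 0 with the beta prior of DESeq2 and 3 with no fold limit. Leaving out any 1 library made it 0, except selected replicate 2, without which it stayed 1. The count of depleted NEAT1 shRNAs was 1 and became 0 at a mean count of at least 100, where NR_030343 shRNA 5 was no longer tested. It was 1 in every other alternative. The counts of enriched shRNAs were 0 for each gene in all alternatives run. In single shRNAs, 187 of 207 values kept their sign and their side of the adjusted p threshold, whatever the fold limit, and the 9 that changed sign had not passed the test under either setting. These were NR_002819 shRNA 4 (0.0065 with voom, -0.36 to 0.26 without 1 library), NR_030343 shRNA 3 (0.0103 with library totals, 0.0037 with voom, -0.0597 to 0.0400 without 1 library), ENST00000508832 shRNA 2 (-0.25 to 0.60), ENST00000508832 shRNA 5 (-0.11 to 0.14) and NR_030343 shRNA 2 (-0.0058 to 0.23), the last 3 only without 1 library. The cause of these changes was not tested. Replicate numbers did not pair the libraries (correlations of deviations -0.01, 0.01 and -0.03). With the replicate number as a block, 1 shRNA of each gene was depleted and 528 in all, against 494 without it. NR_030343 shRNA 1 passed with voom (-0.27, adjusted p = 0.0482). Depth limits ENST00000508832 shRNAs 2 and 3 most, with 128 and 80 input reads. Over all shRNAs, 494 were depleted, 306 at a mean count of at least 100, 575 with no filter, 253 to 279 without 1 input library and 569 to 603 without 1 selected library.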
